A study of Mus musculus with 6 samples.

Results

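The genes of VEGF and angiopoietin signalling were taken from ventricular tissue of 8 weeks old mice. The 10 genes, Vegfa, Vegfb, Vegfc, Pgf, Angpt1, Angpt2, Flt1, Kdr, Tek and Nrp1, were a fixed list, and every probe set that the platform annotation gives one of them as its only symbol was used. That gave 21 of 34945 such probe sets, and all 10 of the 18193 genes measured were found. Each gene was read at its probe set with the highest mean over the arrays. The 6 short-oligonucleotide arrays were 3 of wild-type mice and 3 of caAkt mice, whose hearts alone express a constantly active Akt kinase from a transgene. Neither group is labelled as having had any treatment. The promoter of the transgene, the strain and the sex of the mice are not given in the sources used here. Nothing in the labels says that the arrays come from separate hearts. The p-values therefore measure only how these samples spread, which could be technical.

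VEGF ligands are secreted growth factors that make endothelial cells divide, migrate and let fluid pass. VEGF-A acts mainly through the receptor tyrosine kinase VEGFR-2, encoded by Kdr, while VEGFR-1, encoded by Flt1, binds VEGF-A tightly but signals weakly and acts largely as a decoy. VEGF-B and placental growth factor (Pgf) bind VEGFR-1 and not VEGFR-2, and VEGF-C and VEGF-D act on VEGFR-3 of lymphatic vessels. Angiopoietin 1, made by cells around the vessel, activates the endothelial receptor Tie2, encoded by Tek, and stabilises the vessel wall, whereas angiopoietin 2 is released by endothelial cells and often opposes it. In the heart, cardiomyocytes are a main source of VEGF-A and VEGF-B, and the receptors sit mostly on the capillary endothelium between them.

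Of the 10 genes, 5 fell and 0 rose in caAkt hearts. The ligands Vegfa, Vegfb and Pgf fell, as did the receptors Kdr and Tek, each by 1.29-fold to 1.45-fold. Vegfc, Angpt1, Angpt2, Flt1 and Nrp1 did not pass the test. A gene was called at a Benjamini-Hochberg adjusted p under 0.05 in limma over all genes, and over all genes 28.5% were called, 12.4% lower and 16.1% higher. The median log2 fold change (caAkt minus wild-type throughout) was -0.41 over the 10 genes and -0.036 over all genes. The 3 values of caAkt lay below all 3 of wild-type for the same 5 genes and above them for 0, where 42.4% of all genes had groups that did not overlap, 21.1% lower and 21.4% higher. In bulk tissue, fewer cells of a type and less RNA per cell cannot be told apart.

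**Figure D1:**
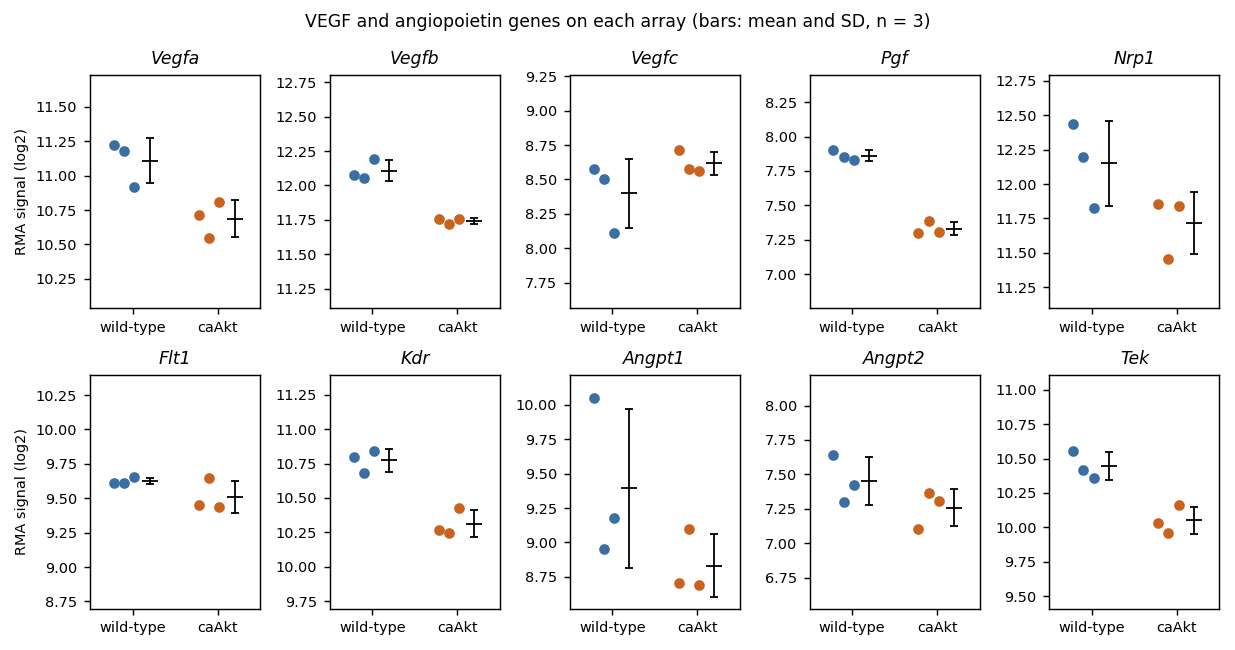
RMA signal (log2) of each of the 10 genes at its brightest probe set, with 1 point per array (blue wild-type, orange caAkt) and the mean and SD of 3 arrays beside them. Every panel spans the same number of log2 units but has its own position, so heights are read within a panel. The groups are apart for Vegfa, Vegfb, Pgf, Kdr and Tek and overlap for the other genes.

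Across the whole table, the array medians were 6.77 to 6.80 (log2), and arrays of the same genotype correlated at 0.995 to 0.997 over all probe sets against 0.983 to 0.985 between genotypes. Akt1, the gene of the transgene, stood at 9.79 to 10.18 on the wild-type arrays and 15.08 to 15.16 on the caAkt arrays. The cardiomyocyte markers, which check the labelled tissue, averaged 14.62 to 14.77 in wild-type and 14.56 to 14.61 in caAkt, with 0 of 12 higher and 4 lower. Fibroblast markers were higher in 9 of 11 cases and lower in 0 (mean level 11.07 to 11.27 in wild-type, 12.14 to 12.33 in caAkt). Macrophage markers were higher in 11 of 12 and lower in 1 (8.80 to 9.03 and 10.16 to 10.44). Over all genes, 16.1% were higher and 12.4% lower. Among the lowest signals, Eif2s3y, Kdm5d and Uty of the Y chromosome reached 4.57 at most, and no gene of the lists used here had a group mean below that.

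The sequences just upstream of the RefSeq transcript start are shown for the ligand gene Vegfa, for the receptors Kdr and Tek that fell with it, and for Flt1, which did not pass the test. They cover 250 bases before the start, 5′ to 3′ on the strand of the gene, in build GRCm38.p6 as given by RefSeq. Capitals mark the GC box GGGCGG and the cAMP response element TGACGTCA on either strand. The windows are chr17:46032378-46032627 on the minus strand for Vegfa, chr5:75978456-75978705 on the minus strand for Kdr, chr4:94739039-94739288 on the plus strand for Tek and chr5:147726012-147726261 on the minus strand for Flt1.
Vegfa: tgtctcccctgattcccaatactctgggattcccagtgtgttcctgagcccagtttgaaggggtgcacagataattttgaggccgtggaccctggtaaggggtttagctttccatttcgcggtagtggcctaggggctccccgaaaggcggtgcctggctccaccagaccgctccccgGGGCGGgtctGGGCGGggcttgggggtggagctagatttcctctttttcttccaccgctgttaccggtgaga
Kdr: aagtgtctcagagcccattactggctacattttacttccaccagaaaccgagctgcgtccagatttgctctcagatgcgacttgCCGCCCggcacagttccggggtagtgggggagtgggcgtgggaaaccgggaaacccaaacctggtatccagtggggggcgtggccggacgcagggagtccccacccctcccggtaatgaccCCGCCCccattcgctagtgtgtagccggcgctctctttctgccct
Tek: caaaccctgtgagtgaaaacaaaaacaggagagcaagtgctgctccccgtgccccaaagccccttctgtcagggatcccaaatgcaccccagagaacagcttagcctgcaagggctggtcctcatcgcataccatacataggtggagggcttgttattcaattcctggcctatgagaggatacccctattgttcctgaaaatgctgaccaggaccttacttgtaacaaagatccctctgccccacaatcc
Flt1: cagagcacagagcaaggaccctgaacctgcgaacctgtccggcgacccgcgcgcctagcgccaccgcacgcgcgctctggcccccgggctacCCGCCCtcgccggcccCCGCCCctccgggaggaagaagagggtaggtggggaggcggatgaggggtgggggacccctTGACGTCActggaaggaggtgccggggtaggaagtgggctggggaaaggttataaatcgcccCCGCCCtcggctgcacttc
Of the 10 genes, 8 matched an entry of the promoter table, and Angpt1 and Angpt2 did not. The GC box stood in 7 of the 8 windows, all except that of Tek, and in 33% of 27025 windows of the same length over all genes. These 7 windows had 59.2% to 76.4% G and C, and that of Tek 51.2%. The share over all genes was not matched for this content. The cAMP response element stood only in the window of Flt1 among the 8, and in 1.6% of all windows. The word ACGTG, a form of the core of the hypoxia response element, was in 0 of the 8 and in 16.5% of all. Other forms of that core, such as GCGTG, were not searched for. The ETS core GGAA, a short word recognised by many endothelial transcription factors, was in 7 of the 8 and in 93.4% of all. Both strands were searched, and no motif here contains another. A match describes letters in a window and not a site in use. An absence holds only for these 250 bases, since sequence further away was not searched.

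Among the VEGF ligands, Vegfa, the main signal from muscle to capillary, read 11.23, 11.18 and 10.92 on the wild-type arrays and 10.71, 10.54 and 10.81 on the caAkt arrays (log2 signal). The lowest wild-type value stood above the highest caAkt value by a narrow margin. The log2 fold change was -0.42 ± 0.10 (SE, n = 3 per group, limma adjusted p = 0.0133), or 1.34-fold lower. The dimmer probe set of Vegfa behaved differently, with 9.66, 9.55 and 9.92 in wild-type against 9.67, 9.61 and 9.77 in caAkt and a log2 fold change of -0.026 ± 0.10 (SE). Averaging both gave -0.22 (limma adjusted p = 0.0410). The transcript region that each of them reads was not worked out, so the fall holds for the brighter probe set and not for Vegfa transcripts in general. Vegfa was not called without wild-type replicate 1 (limma adjusted p = 0.0503), wild-type replicate 2 (0.0550) or caAkt replicate 2 (0.0564), and over all alternatives its adjusted p ranged from 0.00331 to 0.0564.

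Vegfb, a ligand of VEGFR-1 that is abundant in heart muscle, read 12.08, 12.05 and 12.19 in wild-type and 11.75, 11.72 and 11.76 in caAkt. The caAkt arrays lay close together and well below the wild-type arrays. Its log2 fold change was -0.36 ± 0.07 (SE, limma adjusted p = 0.00358), or 1.29-fold lower, from a single probe set. Pgf, the placental growth factor, had the largest fall among the called genes, from 7.90, 7.85 and 7.83 to 7.30, 7.38 and 7.31. Both groups were tight and the gap between them was several times their spread (SD 0.04 in wild-type and 0.05 in caAkt). Its log2 fold change was -0.53 ± 0.07 (SE, limma adjusted p = 0.000339), or 1.45-fold lower, also from a single probe set. Both Vegfb and Pgf kept their call in every alternative that measured them.

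Vegfc, a ligand of the lymphatic receptor VEGFR-3, went the other way without passing the test. At its brightest probe set it read 8.58, 8.51 and 8.11 in wild-type and 8.71, 8.58 and 8.56 in caAkt, so that wild-type replicate 3 was low and the groups overlapped slightly. The log2 fold change was 0.22 ± 0.12 (SE, limma adjusted p = 0.208), with a 95% confidence interval of -0.051 to 0.49. Its dimmer probe sets gave 0.28 and 0.36, with wholly separate groups, and the former was called when all probe sets were rows of the fit (limma adjusted p = 0.0429; 0.128 for the latter).

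The receptor Kdr, which carries most of the VEGF-A signal in endothelium, read 10.80, 10.68 and 10.84 in wild-type and 10.27, 10.25 and 10.43 in caAkt. All 3 caAkt arrays were lower than every wild-type array, with a log2 fold change of -0.46 ± 0.08 (SE, limma adjusted p = 0.00214), or 1.38-fold lower, from a single probe set. Flt1, the decoy-like receptor, read 9.61, 9.61 and 9.65 in wild-type and 9.45, 9.64 and 9.44 in caAkt. Its caAkt replicate 2 was level with wild-type while the other caAkt arrays were lower. The log2 fold change was -0.12 ± 0.08 (SE, limma adjusted p = 0.299), with a 95% confidence interval of -0.29 to 0.058, and the 4 probe sets gave -0.25 to 0.027 with none called.

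Set against each other as a difference of changes, Flt1 minus Kdr was 0.35 ± 0.12 (log2, SE), with the per-array differences of the groups not overlapping (exact permutation p = 0.1, two-sided; 0.2 adjusted over 6 such differences). With 3 arrays against 3, 0.1 is the smallest p that this test can give, so the design cannot reach 0.05. Leaving out single arrays gave 0.25 to 0.44.

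Nrp1 encodes neuropilin 1, a co-receptor that strengthens the binding of VEGF-A to VEGFR-2. At its brightest probe set it read 12.44, 12.20 and 11.82 in wild-type and 11.85, 11.46 and 11.84 in caAkt. Wild-type replicate 3 was as low as the higher caAkt arrays, so the groups overlapped. The log2 fold change was -0.43 ± 0.16 (SE, limma adjusted p = 0.0731), and it reached -0.60, with a call, once wild-type replicate 3 was left out (limma adjusted p = 0.0151). Only 1 of the 6 fits that leave out an array called Nrp1 (limma adjusted p up to 0.238). Over 15 alternative fits the change ranged from -0.60 to -0.29, and 4 of them called it. The dimmer probe sets gave -0.32, -0.31 and -0.57, each with separate groups and each called with all probe sets as rows (limma adjusted p = 0.0382, 0.0321 and 0.0103). Nrp1 was also called with the mean of its probe sets (-0.41, limma adjusted p = 0.0165).

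Of the angiopoietin system, the receptor Tek read 10.56, 10.42 and 10.36 in wild-type and 10.03, 9.96 and 10.16 in caAkt. No caAkt array reached the lowest wild-type array. The log2 fold change was -0.39 ± 0.08 (SE, limma adjusted p = 0.00631), or 1.31-fold lower, from a single probe set. Kdr and Tek were called in every alternative run. Angpt1, the activating ligand of Tie2, had the widest spread of the 10 genes, with 10.05, 8.95 and 9.18 in wild-type and 8.71, 9.10 and 8.69 in caAkt. Wild-type replicate 1 stood well above all the other arrays. The log2 fold change was -0.56 ± 0.25 (SE, limma adjusted p = 0.125), with a 95% confidence interval of -1.12 to -0.0039, and it was -0.24 without wild-type replicate 1. The dimmer probe set gave -0.62 with separate groups (limma adjusted p = 0.0498 with all probe sets as rows), and it too was highest in wild-type replicate 1, at 8.56 against 7.76 and 7.89.

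Angpt2, the ligand that is often induced in remodelling vessels, read 7.64, 7.30 and 7.42 in wild-type and 7.11, 7.37 and 7.30 in caAkt. The groups overlapped, with a log2 fold change of -0.19 ± 0.10 (SE, limma adjusted p = 0.201) and a 95% confidence interval of -0.43 to 0.042. Its change minus that of Angpt1 was 0.37 ± 0.26 (log2, SE; exact permutation p = 0.2, two-sided; 0.3 adjusted), and 0.13 without wild-type replicate 1.

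With all probe sets as rows of the fit, 17 of the 21 probe sets had a negative log2 fold change, 9 were called lower and 1 higher. In that fit 8.76% of all 45037 probe sets were called lower and 11.3% higher. Probe sets of the same gene share their transcript and are not independent.

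**Figure D2:**
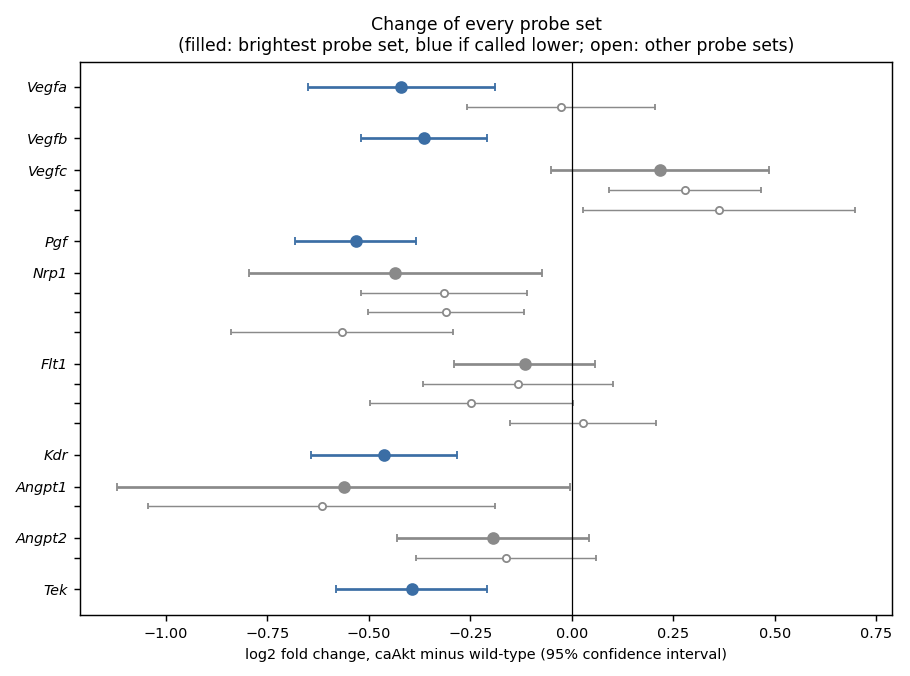
Log2 fold change (caAkt minus wild-type) with its 95% confidence interval for all 21 probe sets of the 10 genes, filled symbols for the brightest probe set of a gene (blue where called lower) and open symbols for the others. The Vegfa probe sets disagree, at -0.42 and -0.026, whereas all 4 Nrp1 probe sets lie below 0 and all 3 Vegfc probe sets above it.

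The receptors were set beside endothelial markers, since Kdr, Flt1 and Tek are expressed mainly in endothelium. Which cells of the tissue the Nrp1 signal came from was not tested. Of 22 endothelial markers, 6 were lower and 1 higher (12.4% and 16.1% over all genes). Their median log2 fold change was -0.20, and 19 of the 22 changes were negative, most of them not called. The mean level of the markers was 10.16 to 10.22 on the wild-type arrays and 9.98 to 10.09 on the caAkt arrays. Lower were the water channel gene Aqp1 (-0.62), the transcription factor gene Erg (-0.51), Mmrn2 (-0.44), the sialomucin gene Emcn (-0.38), the adhesion gene Icam2 (-0.36) and Robo4 (-0.28), all named after their values were seen. Plvap, which encodes the diaphragm protein of fenestrated endothelium, rose by 1.20 ± 0.07 (log2, SE). Pecam1 (-0.13) and Cdh5 (-0.16), the junction proteins of all endothelium, were not called.

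Relative to the mean of these markers, Kdr had a change of -0.30 ± 0.07 (log2, SE) and Tek of -0.23 ± 0.06, both with separate groups (exact permutation p = 0.1 each, two-sided, the smallest possible; 0.2 adjusted). Against the median signal of the markers on each array, which Plvap does not pull up, the values were -0.21 and -0.14. The groups stayed separate for Kdr but overlapped for Tek. This median was taken over signal levels and is not the median of the marker changes (-0.20). For Nrp1 the relative change was -0.27 ± 0.21 (exact permutation p = 0.3; 0.36 adjusted) and for Flt1 it was 0.047 ± 0.085 (exact permutation p = 0.7; 0.7 adjusted), with overlapping groups for both. Against the median signal of the markers, Flt1 was at 0.13 with separate groups and Nrp1 at -0.19 with overlapping ones. The log2 fold changes of these receptors lay within the range of the markers (-0.62 to 1.20). The part that a change in endothelial content plays in the receptor values was not tested beyond these differences.

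**Figure D3:**
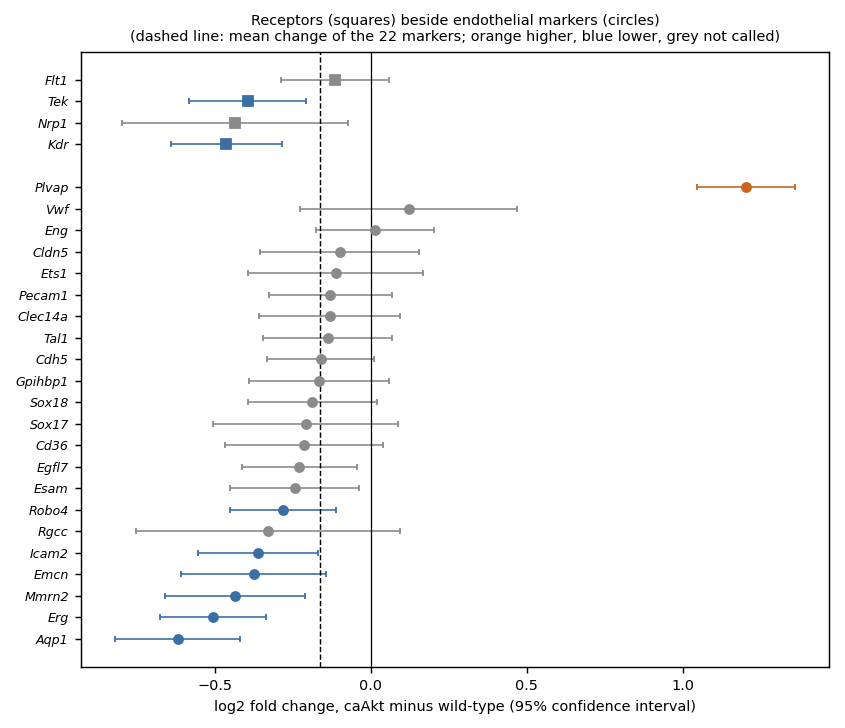
Log2 fold change (caAkt minus wild-type) with its 95% confidence interval for the receptors Flt1, Tek, Nrp1 and Kdr (squares) and 22 endothelial markers (circles), coloured by whether they were called higher, lower or not. The dashed line is the mean change of the markers, and Kdr, Tek and Nrp1 lie to its left while Flt1 lies close to it. Markers lie on both sides of the line, and Aqp1 and Erg lie further left than any receptor.

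Beyond the 10 genes, 52 of 56 listed genes of the pathway were measured, of which 14 were higher and 10 lower (16.1% and 12.4% over all genes), with a median log2 fold change of -0.060. Among 6 other ligands and receptors, Vegfd and Flt4 were higher and Ptprb was lower. Vegfd, the other ligand of VEGFR-3, read 6.62, 6.83 and 6.02 in wild-type and 7.89, 8.21 and 8.07 in caAkt. Every caAkt array was more than a log2 unit above the highest wild-type array, and the log2 fold change was 1.57 ± 0.18 (SE, limma adjusted p = 0.000247), or 2.96-fold. Its dimmer probe sets gave 0.94 and 1.62. Flt4, which encodes VEGFR-3 itself, rose from 8.92, 8.93 and 8.85 to 9.35, 9.66 and 9.57, a log2 fold change of 0.63 ± 0.09 (SE, limma adjusted p = 0.000732), or 1.54-fold. Its dimmer probe set gave 0.41 with separate groups, and was not called with all probe sets as rows (limma adjusted p = 0.0625). Both Vegfd and Flt4 were called in every alternative run.

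Of 5 measured markers of lymphatic endothelium, Pdpn (1.08), Mmrn1 (0.85) and Reln (0.68) were higher in log2 fold change, while Prox1, the factor that defines lymphatic identity (-0.15), and Lyve1 (-0.46) were not called. Over all genes, 16.1% were higher and 12.4% lower. Fibroblast and macrophage markers, of which 9 of 11 and 11 of 12 were higher, moved with Vegfd, and their part in its rise was not tested. Ptprb, a phosphatase that restrains Tie2 and VEGFR-2, fell by 0.27 ± 0.08 (log2, SE, limma adjusted p = 0.0246) at its brightest probe set, with dimmer probe sets at 0.075 and 0.20 and a mean over probe sets of -1.8e-05. It was called without only 1 of the 6 single arrays (limma adjusted p up to 0.0991). Tie1, the orphan partner of Tie2 (-0.24), the co-receptor gene Nrp2 (-0.11) and Angpt4 (0.23) were not called.

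Among 26 genes of signal transduction and modulators, 8 were higher and 5 lower (16.1% and 12.4% over all genes), with a median log2 fold change of 0.064. The largest rises were those of secreted proteins. Svep1, a matrix protein that binds the Tie1 receptor, had a log2 fold change of 2.34 ± 0.15 (SE) and Thbs1, the angiogenesis inhibitor thrombospondin 1, of 2.06 ± 0.13, which are 5.05-fold and 4.17-fold. Wild-type values of Thbs1 were 7.30 to 7.39 and caAkt values 9.07 to 9.61, far apart. Of intracellular members, the kinase genes Prkcb (0.92), Map2k1 (0.51) and Src (0.38), the heat shock protein gene Hspb1 (0.83), the phosphatase gene Ptpn11 (0.47) and the Ras inhibitor gene Rasa1 (0.47) were higher. Src was not called with plain probe sets (0.11, limma adjusted p = 0.409), and Rasa1 was called in only 2 of the 6 fits that leave out an array (limma adjusted p up to 0.0881). The mean of its probe sets put Prkcb at 0.59. The macrophage and fibroblast markers moved with these genes too, and their part was not tested.

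The 5 lower members of that group included the regulatory subunit of phosphoinositide 3-kinase Pik3r1 (-0.42) and Nos3, the endothelial nitric oxide synthase, which read 9.58, 9.86 and 9.87 in wild-type and 9.37, 9.54 and 9.39 in caAkt. The groups of Nos3 were separate by a narrow margin, with a log2 fold change of -0.33 ± 0.10 (SE, limma adjusted p = 0.0278), and 4 of the 6 fits that leave out an array did not call it (limma adjusted p up to 0.105). The adaptor gene Dok2 (-0.37), Vash2 (-0.30) and Grb14 (-0.22) were also lower. Grb14 was not called without any single array (limma adjusted p 0.0725 to 0.132), and Dok2 and Vash2 were each called in only 2 of those 6 fits.

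Of 20 targets and endothelial partners, 4 were higher and 4 lower (16.1% and 12.4% over all genes), with a median of -0.16. The Notch ligand gene Dll4, which VEGF induces in tip cells, fell by 0.37 ± 0.10 (log2, SE, limma adjusted p = 0.0206), though not without caAkt replicate 1 (limma adjusted p = 0.0803) or caAkt replicate 3 (0.0519). The Notch target genes Hey1 and Hey2 fell by 0.39 ± 0.06 and 0.58 ± 0.07, and the peptide gene Apln, another product of tip cells, by 0.51 ± 0.09. These 3 kept their calls without any single array. Hey1 read 8.78 to 8.79 in wild-type and 8.37 to 8.43 in caAkt, with very little spread in either group. Hey2 lay nearer the lowest signals, at 5.91 to 5.96 in wild-type and 5.30 to 5.42 in caAkt, from a single probe set. The receptors Notch1 (-0.16) and Notch4 (-0.11) were not called.

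Higher in that group were Rcan1, a calcineurin inhibitor induced by VEGF (1.21), the guidance ligand Sema3c (0.89), the integrin chain Itgav (0.84) and Esm1 (0.73), a marker of tip cells. Esm1 lay near the lowest signals in wild-type, at 4.96 to 5.16 against 5.34 to 6.12 in caAkt, and was called in 3 of the 6 fits that leave out an array (limma adjusted p up to 0.0657). Rcan1 is also strongly expressed in cardiomyocytes, so its value is not specific to endothelium. The mean of the probe sets of Itgav was 0.25 and called.

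**Figure D4:**
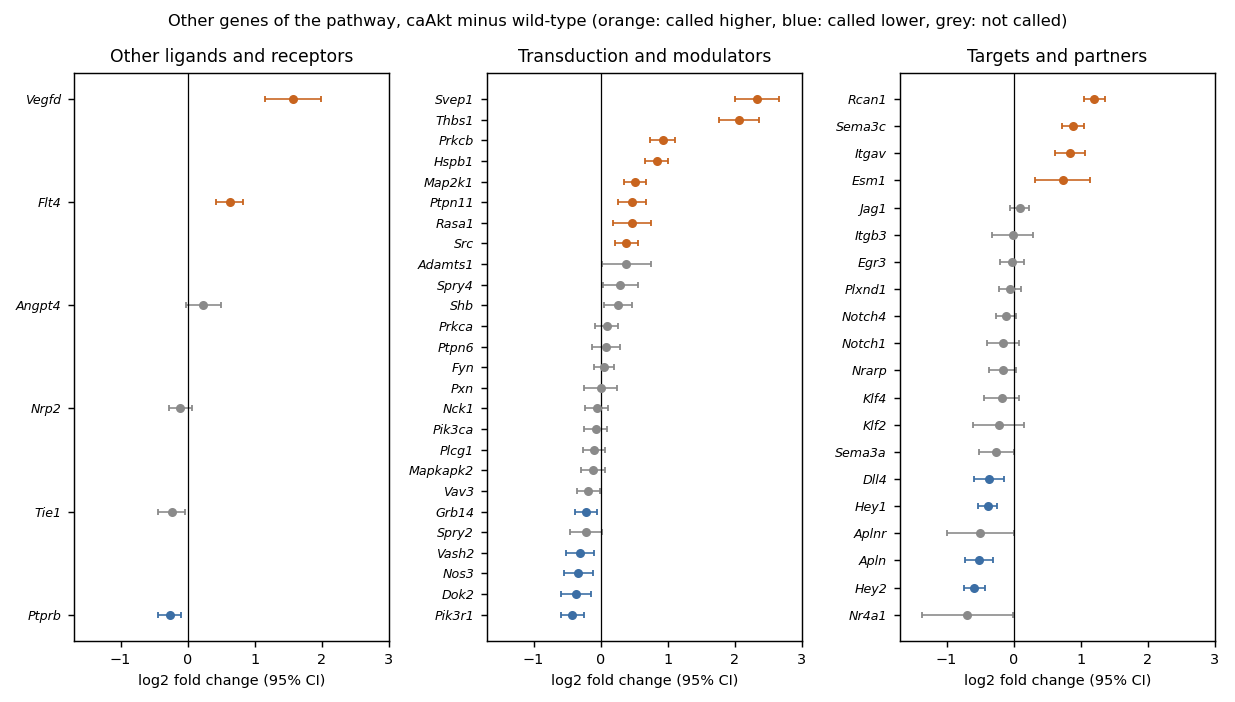
Log2 fold change (caAkt minus wild-type) with its 95% confidence interval for 52 other genes of the pathway in the 3 fixed groups, orange where called higher, blue where called lower and grey where not called. Vegfd and Flt4 stand to the right among ligands and receptors, Svep1 and Thbs1 among modulators, and Hey2, Apln, Hey1 and Dll4 are the called genes to the left among targets.

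Transcriptional regulators of Vegfa, a gene that hypoxia-inducible factors and the coactivator PGC-1α can each switch on, were mixed. Of 12, 4 were higher and 5 lower (16.1% and 12.4% over all genes), with a median of -0.082. Hif1a rose from 10.79, 10.64 and 10.16 to 11.36, 11.17 and 11.20, a log2 fold change of 0.71 ± 0.15 (SE, limma adjusted p = 0.00604). Epas1, which encodes the endothelium-rich factor HIF-2α, fell by 0.57 ± 0.08 (limma adjusted p = 0.000499), and all 3 caAkt arrays (11.97 to 12.04) were below the wild-type arrays (12.46 to 12.67). Ppargc1a (PGC-1α) fell by 1.79 ± 0.17. The prolyl hydroxylases that mark the factors for decay in the presence of oxygen differed among themselves, with Egln3 (0.40) and Egln2 (0.21) higher and Egln1 lower (-0.38; -0.15 and not called with the mean of its probe sets). Hif1an, whose product FIH blocks the binding of coactivators to the factors, was higher (0.43). The mean of the probe sets of Hif1an was 0.27 and called. Arnt2 (-0.30; -0.095 and not called with the mean of its probe sets) and Esrra (-0.23) were lower, the latter not without any single array (limma adjusted p 0.0591 to 0.121). Egln2 was called in 1 of the 6 fits that leave out an array and Egln3 in 3, while Hif3a (-0.19), Arnt (0.026) and Vhl (0.040) were not called.

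The genes whose pattern over the 6 arrays was most like that of Pgf, the called gene with the largest fall, were Pigyl, Nudt8 and Smim20. After the wild-type mean of each gene was subtracted, they differed from Pgf by a root mean square of 0.019, 0.029 and 0.031 log2 units. Their log2 fold changes were -0.53, -0.52 and -0.54.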

How the data were processed

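The deposited log2 values are RMA output from the package affy, per the submitters' processing notes. RMA corrects background, makes array distributions alike and summarises each probe set, so that changes are relative to the bulk of genes. Versions are not given in the sources used here. Of 45101 probe sets, 64 controls, 932 with several symbols in the 2016 platform annotation and 9160 with none were left out of the gene table. Groups followed the titles. Each of 18193 genes was read at its brightest probe set and fitted with limma 3.58.1 in R 4.3.3 (lmFit, eBayes, genotype as the term, two-sided), with Benjamini-Hochberg adjustment over all genes, called at an adjusted p under 0.05. A fit of all probe sets as rows gave the values of dimmer probe sets. Differences between changes were tested by exact permutation of the arrays, 6 in all.

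The genes and lists were chosen with earlier results of these data known. Named were all 10 genes, called pathway genes, all regulators of Vegfa, marker genes where few were called, and the 3 genes nearest in pattern to the called genes with the largest rise and the largest fall. Other genes given with a value were added after their values were seen. The code was tested on simulated data. The number of arrays limits the precision. Alternatives were other variance moderation, probe set choices, a filter on dim genes, scalings, array weights, a block for the replicate number, a stricter threshold (0.01) and the omission of each array in turn.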

Additional observations from a re-analysis of the deposited data

How the results depend on the processing

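The 10 VEGF and angiopoietin genes kept their direction in every alternative run, both other scalings included. Single arrays left out gave 4 to 6 of them lower and 0 higher, while 3984 to 4827 of 18193 genes were called in either direction, against 5183 with all arrays. Of 159 values for these genes under alternatives, 4 lost the call (Vegfa) and 4 gained it (Nrp1). Other pathway genes were lower in 5 to 9 cases without single arrays (5 without wild-type replicate 2, caAkt replicate 1 or caAkt replicate 3), and in 4 at a threshold of 0.01, where 3255 of all genes were called. Against the median signal of the endothelial markers on each array, Kdr had -0.21 and Tek -0.14. Arnt, not called anywhere, turned sign with the mean of probe sets (-0.0099), repeated quantile normalization (-0.052), and without wild-type replicate 3 (-0.039) or caAkt replicate 1 (-0.028), with -0.039 to 0.090 over the single arrays left out. Repeated quantile normalization gave 2667 genes higher and 2714 lower against 2929 and 2254, with the median of all genes at -0.036. Vegfb has no plain probe set and got no value there. Same-numbered arrays did not consistently deviate together (correlations of 0.27, 0.031 and -0.12). Pairs of unlike number gave -0.27 to 0.23. So few values cannot exclude a pairing by number. With the replicate number as a block, 5 of the 10 genes were lower and 0 higher, 15 other pathway genes were higher and 11 lower, and 5141 genes were called in all.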

Other observations

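Cells of the vessel wall gave a divided picture. Of 11 markers of pericytes and smooth muscle, 2 were higher and 2 lower (16.1% and 12.4% over all genes), with a median log2 fold change of 0.028. The subunits of the ATP-sensitive potassium channel of pericytes both fell. Abcc9 had a log2 fold change of -1.69 ± 0.08 (SE), with 12.52 to 12.72 on the wild-type arrays and 10.86 to 11.02 on the caAkt arrays, and Kcnj8 of -0.70 ± 0.09. Abcc9 is also a channel gene of cardiomyocytes. Cspg4, which encodes the pericyte proteoglycan NG2, rose by 0.85 ± 0.07, and the smooth muscle gene Tagln by 0.46 ± 0.14. The groups of Tagln overlapped slightly, at 9.64 to 9.96 in wild-type and 9.94 to 10.43 in caAkt. Pdgfrb (0.24), Rgs5 (-0.20), Notch3 (-0.15), Acta2 (0.028) and Myh11 (-0.16) were not called. All were named after their values were seen.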
